A study of Bos taurus with 18 samples.

Results

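DNA methylation in High ×5 cells was compared with that in Low ×5 cells, so that the comparison asks how glucose concentration was related to methylation when epigenetic modifiers (EM) were supplied at 5 times their Control level. All 31500 CpGs of the deposited table were compared, in 3 High ×5 and 3 Low ×5 libraries out of 18 libraries in the series. The cells were EBTr, a line of fibroblasts grown from the trachea of a bovine embryo, so all libraries share 1 origin. High cells were grown in 4.5 g/L glucose and Low cells in 1 g/L glucose. The EM were folate, choline, vitamin B12 and methionine, with Control levels of 0.001 g/L, 0.001 g/L, 4 µg/L and 0.015 g/L. For methionine, the sample labels give 5 times the Control level at ×5, while the study's methods keep it at 2 times the Control level in all supplemented media. Cells were passaged in their treatment medium before the cells for sequencing were plated. The other 12 libraries (High and Low cells at the Control level and at ×2.5) contributed to the estimate of spread and are named only where a value of theirs is set beside the ×5 comparison. No source used here says that the 3 tubes of a treatment were separate cultures, so the p-values measure the spread between these libraries, which may be technical. The labelled cell type could not be checked against marker genes, because methylation alone was measured.

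Methylation of a cytosine that is followed by a guanine (a CpG) is written by DNA methyltransferases, with S-adenosylmethionine as the methyl donor. Folate, vitamin B12, choline and methionine feed the cycle that makes this donor, and glucose feeds it through serine. In mammalian cells, most CpGs outside CpG islands are highly methylated, while islands at the start of active genes are mostly unmethylated. Reduced representation bisulfite sequencing (RRBS) reads CpG-rich fragments of DNA cut with a restriction enzyme, and bisulfite treatment separates methylated from unmethylated cytosines. The level of a CpG in a pellet is a share over many cells, so that fewer cells with the mark and fewer marked alleles per cell cannot be told apart.

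The deposited value of a CpG is an M-value, the log2 of methylated over unmethylated reads, after an offset was added to each. A level in percent is here the methylated share that an M-value stands for, with the offset left in. Where both strands of a CpG were tested, each strand has a position and a value of its own and is counted as 1 CpG here. The files give no read numbers, and depth was not worked out from the values, so no interval for counting error is given. Levels moved in coarser steps in each High ×5 library than in each Low ×5 library at the same CpGs. This was seen in all of the named clusters described below, those of ACBD6, INTS10, TLE4, LOC785287 and TTI2. Coarser steps stand for fewer reads, and the part of depth in the differences was not tested. The mean level over all CpGs was 68.7%, 67.6% and 68.6% in the 3 High ×5 libraries and 70.0%, 69.3% and 69.1% in the 3 Low ×5 libraries. All High ×5 libraries lay below all Low ×5 libraries. The group means were 68.3% ± 0.619 (SD, n = 3) and 69.5% ± 0.487 (SD, n = 3), a difference of -1.17 percentage points (two-sided exact permutation test, p = 0.1, which is the lowest value possible with 3 libraries against 3). The libraries also differed in the spread of their M-values, with an SD over CpGs of 1.68, 1.63 and 1.74 in High ×5 and 1.83, 1.79 and 1.77 in Low ×5. Again the groups did not overlap (exact permutation test, p = 0.1). Spearman correlations between the M-values of pairs of libraries were 0.884 to 0.909 within High ×5, 0.940 to 0.954 within Low ×5 and 0.903 to 0.946 between the groups, so that the highest value within High ×5 was below the highest value between the groups. At the other EM levels, the mean level of High cells differed from that of Low cells by 1.02 points at the Control level (exact permutation test, p = 0.3) and by -0.544 points at ×2.5 (exact permutation test, p = 0.4).

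**Figure D1:**
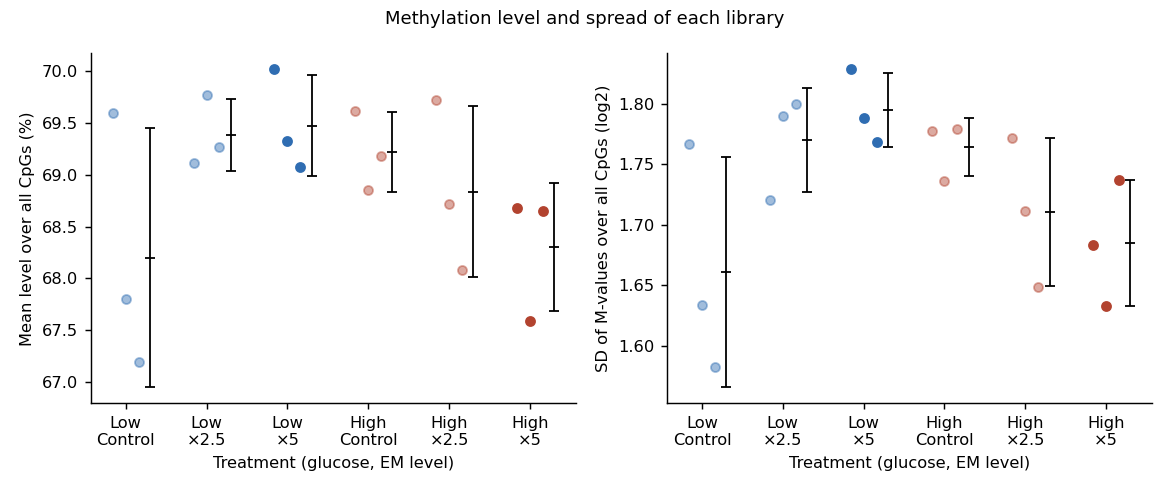
Mean methylation level (left, percent) and SD of the M-values (right, log2 units) over 31500 CpGs in each of the 18 libraries, with points for libraries and a bar for the mean ± SD of each treatment, on axes that do not start at 0. The 3 High ×5 libraries lie below the 3 Low ×5 libraries in both panels, and the Low Control libraries have the widest range of mean levels, from 67.2% to 69.6%.

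Between High ×5 and Low ×5, 506 of 31500 CpGs were called at the unadjusted p-value of 0.01 that the study uses, which is 1.61% of those tested. If no CpG differed, about 315 would be called. Of the called CpGs, 410 (1.3% of those tested) were demethylated in High ×5, with a lower level than in Low ×5, and 96 (0.305%) were methylated. After Benjamini-Hochberg adjustment of the limma p-values, a single CpG was under 0.05, while 2108 CpGs were under 0.05 before it. The called CpGs differed by a median of 9.48 points in either direction, against 2.45 points over all CpGs. A difference of at least 10 points was seen in 235 of the called CpGs and in 1158 of all 31500. Over all CpGs, the median difference was -0.10 on the log2 scale and -1.04 points, and 19669 CpGs (62.4%) had a lower mean in High ×5. The 3 libraries of High ×5 lay entirely below those of Low ×5 in 2949 CpGs (9.36% of all) and entirely above in 1057 (3.36%), together 12.7% of all CpGs. Between the 3 High and the 3 Low libraries of the other EM levels, the same shares were 6.4% below and 4.07% above at ×2.5 and 3.69% below and 7.29% above at the Control level. Among the called CpGs, 470 had libraries that did not overlap.

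The surplus of demethylated CpGs moved with the level and the spread of the libraries. After centring of each library on its median M-value, the called CpGs were 212 methylated and 232 demethylated ones. With all libraries scaled to the same median and SD, the numbers were 149 and 190, and after quantile normalization, which gives all libraries 1 distribution, they were 135 and 189. These scalings remove by construction a shift that all CpGs of a library share, and the part of the library-wide difference in the calls was not tested. Without High ×5 library 2, which had the lowest mean level of the 6 libraries, 337 CpGs were called and 248 of them were demethylated. Without High ×5 library 3, 183 CpGs were methylated, and without Low ×5 library 2, 59 were.

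The direction of the difference followed how methylated a CpG was. An M-value from few reads lies nearer to 0 than one from many reads, and the part of depth in this pattern was not tested. When CpGs were sorted by their mean M-value in the 12 libraries outside this comparison, the 435 CpGs in the lowest class (an M-value of -3 or less, a level up to 11.1%) were higher in High ×5 by a median of 0.52 on the log2 scale. Of these CpGs, 34 were called methylated and 1 was called demethylated. The 4983 CpGs in the top class (an M-value over 3, a level above 88.9%) were lower in High ×5 by a median difference of -0.27 on the log2 scale, and 6 were called methylated and 162 demethylated. The 2 classes between M-values of -1 and 1 had medians of 0.00 and -0.03. The mean level of the lowest class was 7.53%, 8.08% and 5.80% in the High ×5 libraries and 4.87%, 5.39% and 5.85% in the Low ×5 libraries. High ×5 library 3 thus lay within the range of Low ×5, and the groups overlapped (difference 1.77 points, exact permutation test, p = 0.2). In the top class, the mean level was 90.6%, 89.6% and 91.4% in High ×5 and 92.8%, 92.2% and 91.9% in Low ×5. Here the groups did not overlap (difference -1.76 points, exact permutation test, p = 0.1). After quantile normalization, the medians of the lowest and the top class were 0.03 and -0.03 on the log2 scale. At ×2.5, the medians of High minus Low in the lowest and the top class were 0.30 and -0.12, and at the Control level they were -0.57 and 0.24. The classes were made from these Control and ×2.5 libraries.

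**Figure D2:**
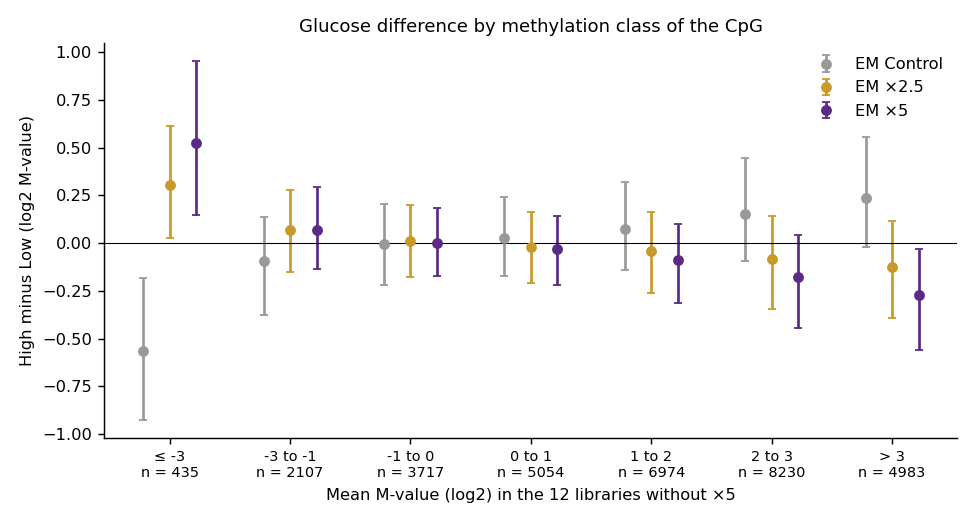
High minus Low difference in M-value (log2, vertical axis) for CpGs in 7 classes of mean M-value in the 12 libraries without ×5 (horizontal axis), as the median (point) and the middle quartiles over CpGs (bar), at the 3 EM levels. At ×5, the median runs from 0.52 in the lowest class to -0.27 in the top class, and at the Control level from -0.57 to 0.24.

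The CpG with the strongest evidence was demethylated in High ×5 and lies on chromosome 27 at position 35834463 of bosTau8. It is assigned to SFRP1, which codes for a secreted protein that binds Wnt ligands and keeps them from their receptors. Gene names come from the study's tables of called CpGs, which give the closest transcriptional start site at whatever distance. Of 25162 CpGs with a name, 2939 are in those tables and 22223 were named because they lie between CpGs of 1 gene, so a name gives a place in the genome and not a promoter. The tables were made from these libraries, and 243 of the CpGs called here are in them, against 204 (0.918%) among the CpGs in between. mRNA was not measured here. The level of this CpG was 75.0%, 80.0% and 75.7% in the High ×5 libraries and 94.1%, 92.3% and 92.2% in the Low ×5 libraries. Every High ×5 value lay below every Low ×5 value, and the gap between the groups was wider than the range within either. The means were 76.9% ± 2.71 (SD, n = 3) and 92.8% ± 1.06, and the difference in M-value was -1.97 (SE 0.21, limma, adjusted p = 0.00193). This call held without each of the 6 libraries in turn, with adjusted p-values from 0.00444 to 0.0293, and not when only the 6 libraries of the comparison were fitted (adjusted p = 0.443, with 0.00149 to 0.443 over all alternatives). In the other treatments, its mean level was 89.1% in High Control, 85.5% in Low Control, 83.1% in High ×2.5 and 84.6% in Low ×2.5. High ×5 was thus the lowest and Low ×5 the highest of the 6 treatment means. SFRP1 had 130 CpGs from 35829825 to 35854567 on chromosome 27, of which 96 were lower in High ×5 and 3 were called, all demethylated. The second of these, at 35839147, had levels of 77.3%, 62.5% and 80.9% in High ×5 and 87.7%, 92.3% and 88.9% in Low ×5 (log2 difference -1.61, SE 0.37, adjusted p = 0.448, limma). The mean over all 130 CpGs was 71.4% ± 1.09 in High ×5 and 73.7% ± 0.752 in Low ×5, which did not pass the test (log2 difference -0.22, SE 0.10, adjusted p = 0.216).

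The next 5 demethylated CpGs were taken by p-value among those whose libraries did not overlap. They were all above 91% on average in Low ×5 and between 81.0% and 85.4% on average in High ×5. None passed the adjusted threshold, and each stayed called (unadjusted p-value below 0.01) in every alternative that tested it. At levels as high as these and those of the SFRP1 CpG, the offset and the number of reads weigh on an M-value. Their part in these calls was not tested. The CpG assigned to TFF3, a secreted trefoil peptide of mucosal surfaces, lies at 144115768 on chromosome 1. Its levels were 86.4%, 84.0% and 85.7% in High ×5 and 94.6%, 93.0% and 93.8% in Low ×5. Each group was within a few points (log2 difference -1.38, SE 0.23, adjusted p = 0.126, limma). The CpG of TENM3, a transmembrane teneurin of developing neurons, lies at 10390907 on chromosome 27, with 78.9%, 87.0% and 83.3% in High ×5 and 96.1%, 95.6% and 93.1% in Low ×5. The log2 difference was -1.94 (SE 0.32, adjusted p = 0.126), with libraries of High ×5 that ranged over more points than those of Low ×5. The CpG of UBE2D1, a ubiquitin-conjugating enzyme, lies at 286602 on chromosome 26. Its levels of 83.0%, 82.1% and 85.2% in High ×5 and 91.7%, 92.2% and 91.7% in Low ×5 were tight in Low ×5, within 1 point (log2 difference -1.15, SE 0.20, adjusted p = 0.181). The CpG of GRIA1, a subunit of AMPA-type glutamate receptors, lies at 66892885 on chromosome 7 and had 81.0%, 81.7% and 88.9% in High ×5 and 96.2%, 92.4% and 98.2% in Low ×5. It had the largest difference of these CpGs on the log2 scale, -2.27 (SE 0.43, adjusted p = 0.300). The CpG of RGR, an opsin of the retinal pigment epithelium, lies at 40139573 on chromosome 28, with 80.4%, 75.7% and 86.8% in High ×5 and 91.1%, 93.3% and 92.0% in Low ×5. High ×5 library 2 was the lowest for RGR, and the log2 difference was -1.42 with it and -1.18 without it (SE 0.27 and adjusted p = 0.300 with all libraries).

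The 6 methylated CpGs with the smallest p-values were likewise taken among those whose libraries did not overlap. They spanned a wider range of levels, from 1.52% to 63.7% on average in Low ×5. The CpG of ITGB8, an integrin subunit that takes part in the activation of latent TGF-beta, lies at 28959908 on chromosome 4. Its levels were 85.2%, 83.3% and 80.0% in High ×5 and 66.4%, 59.4% and 61.4% in Low ×5. The gap between the groups was again wider than the range within either (means 82.8% ± 2.63 and 62.4% ± 3.60, log2 difference 1.55, SE 0.22, adjusted p = 0.0533, limma). Its adjusted p-value was 0.0406 to 0.443 over the alternatives and was above 0.05 without each of the 6 libraries in turn. At the Control level, its mean was 71.2% in High and 61.3% in Low cells, a call in the same direction as at ×5 (log2 difference 0.66, limma, unadjusted p = 0.00970). At ×2.5, the means were 70.4% and 67.4% (log2 difference 0.20, limma, unadjusted p = 0.387). A CpG of PPP2R2A, a regulatory subunit of protein phosphatase 2A, lies at 74624288 on chromosome 8. It was called methylated, with 51.9%, 60.0% and 60.0% in High ×5 and 37.0%, 33.9% and 38.0% in Low ×5 (log2 difference 1.24, SE 0.23, adjusted p = 0.253). A CpG of TLE4, a corepressor of transcription in the Groucho family, lies at 56779123 on chromosome 8, with 78.3%, 79.4% and 74.5% in High ×5 and 64.4%, 62.5% and 64.2% in Low ×5. The Low ×5 libraries of TLE4 were within 2 points of each other, and the log2 difference was 0.97 (SE 0.22, adjusted p = 0.428). A CpG of ADAMTS3, a metalloproteinase that trims procollagen, lies at 89202911 on chromosome 6 and had 45.8%, 41.2% and 48.9% in High ×5 and 36.2%, 28.8% and 23.5% in Low ×5. The log2 difference was 1.00 (SE 0.23, adjusted p = 0.448), and the spread within Low ×5 was wider than within High ×5. A CpG with no assigned gene, at 7663413 on chromosome 13, had 26.7%, 23.5% and 12.5% in High ×5 and 6.76%, 3.77% and 8.62% in Low ×5 (log2 difference 1.97, SE 0.46, adjusted p = 0.448). High ×5 library 3 came closest to Low ×5 there. A CpG of GRIK1, a kainate receptor subunit, lies at 5289979 on chromosome 1 and was almost unmethylated, with 4.26%, 3.85% and 4.40% in High ×5 and 1.03%, 1.67% and 1.87% in Low ×5. Its difference of 2.64 points was 1.53 on the log2 scale (SE 0.37, adjusted p = 0.454), and it was not called after quantile normalization or with levels as fractions. So near 0, the offset and the number of reads weigh on an M-value, and their part in this call was not tested. Of these 12 CpGs, 4 were also called between High and Low cells at the Control level and 0 at ×2.5 (limma). Over all 31500 CpGs, 606 and 317 were called there. The estimate of spread of a CpG is shared by all EM levels, so these calls are not independent of those at ×5. At the Control level, ITGB8 went in the direction seen at ×5, while TFF3 (log2 difference 0.85), UBE2D1 (0.67) and ADAMTS3 (-0.84) went in the opposite one.

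**Figure D3:**
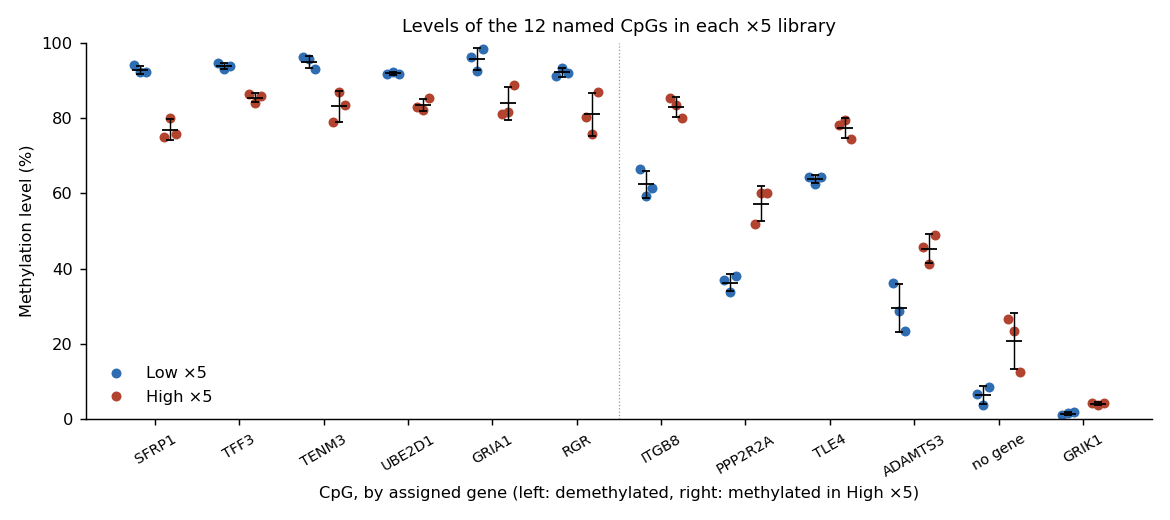
Methylation level (percent, vertical axis) of the 6 demethylated and 6 methylated CpGs with the smallest p-values whose libraries did not overlap, with 1 point per ×5 library and bars for the mean ± SD of 3 libraries. The demethylated CpGs lie above 91% in Low ×5 on average, whereas the methylated CpGs lie between 1.52% and 63.7%.

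Neighbouring positions showed the same difference only in part. The SFRP1 CpG had 4 other tested positions within 100 bp, of which 3 were lower in High ×5 and 0 were called, with a median difference of -0.07 on the log2 scale. The TFF3 CpG had 6, of which 5 were lower (median -0.16), and the TENM3 CpG had 13, of which 9 were lower (median -0.26). Around the GRIA1 CpG, 9 of 23 positions were lower, and its partner 1 bp away had 83.5% in High ×5 and 82.7% in Low ×5. Around the PPP2R2A CpG, 1 of 7 positions had the same sign, and the median difference of the 7 was -0.73, opposite to the call. All 4 positions near the GRIK1 CpG were higher in High ×5, with a median of 0.34. Among 5637 isolated pairs of positions 1 bp apart, taken as both strands of 1 CpG without a genome to check them, 139 pairs had 1 strand called and 0 had both. Pairs were isolated where no other tested position adjoined them. In runs of 3 or more adjoining positions, 4 of 879 neighbours 1 bp apart were both called, 3 of them in the same direction, and these cannot be sorted into strands without a genome. The called strand differed by a median of 1.07 on the log2 scale and its partner by 0.16 in the same direction, and 64.7% of the partners had the sign of the call, against 57.7% of all pairs. Across these pairs, the 2 strands had a Pearson correlation of 0.949 for mean levels and 0.164 for differences, with pairs that share the same 6 libraries. When both strands were averaged, 92 of 5637 pairs were called (1.63%), 13 methylated and 79 demethylated, and 0 had an adjusted p-value under 0.05 (limma, 439 at an unadjusted p-value under 0.05).

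CpGs were joined into clusters where gaps were under 100 bp, and of 2663 clusters with 3 or more CpGs, 65 were called on their mean (2.44%), with 2 methylated (0.0751%) and 63 demethylated (2.37%) in High ×5. None passed the adjusted threshold (limma, smallest adjusted p = 0.0604), and 276 had an unadjusted p-value under 0.05. Without Low ×5 library 1, 28 clusters were called, without High ×5 library 2, 31, and without High ×5 library 3, 102. With libraries centred on the median, 27 clusters were methylated and 17 demethylated. The numbers were 9 and 15 after quantile normalization and 11 and 15 with equal median and SD of libraries.

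The cluster with the smallest p-value had 10 CpGs on chromosome 16 from 63167696 to 63167829 and is assigned to ACBD6, which codes for a protein that binds acyl-CoA. Its mean level was 75.6%, 69.2% and 75.2% in High ×5 and 81.3%, 82.9% and 82.9% in Low ×5. The groups did not overlap, 9 of its 10 CpGs were lower in High ×5 and 4 were called. The means were 73.3% ± 3.58 and 82.4% ± 0.918 (SD, n = 3), a difference of -0.83 on the log2 scale (SE 0.14, limma, adjusted p = 0.0604). It was -0.68 without High ×5 library 2, the lowest of the 6, and it stayed called, with an unadjusted p-value below 0.01, in all 13 alternatives. The second cluster is assigned to INTS10, a subunit of the Integrator complex that processes small nuclear RNAs. It lies on chromosome 27 from 37641558 to 37641665, and all of its 15 CpGs were lower in High ×5, 1 of them called. Its level was 79.2%, 79.7% and 81.6% in High ×5 and 84.3%, 85.0% and 84.0% in Low ×5, without overlap (log2 difference -0.45, SE 0.10, adjusted p = 0.312). A demethylated cluster of 9 CpGs assigned to TLE4, on chromosome 8 from 56719064 to 56719176, had 78.9%, 75.0% and 76.7% in High ×5 and 81.4%, 82.6% and 82.3% in Low ×5 (log2 difference -0.64, SE 0.15, adjusted p = 0.312). In TLE4, 7 of the 9 CpGs were lower, most of all 3 neighbouring ones before its centre. The methylated clusters were those of LOC785287 and TTI2. LOC785287 has 3 CpGs on the X chromosome from 114170967 to 114171081, at 1.74%, 3.36% and 2.02% in High ×5 and 0.905%, 0.911% and 1.24% in Low ×5. That is a change of 1.35 points at a level near 0 (log2 difference 1.16, SE 0.26, adjusted p = 0.312), and it was not called after quantile normalization or with levels as fractions. So near 0, the offset and the number of reads weigh on an M-value, and their part in this call was not tested. TTI2, which codes for a protein of the complex that stabilizes kinases such as mTOR and ATM, has 8 CpGs on chromosome 27 from 28521661 to 28521810. They had 38.3%, 39.2% and 36.9% in High ×5 and 32.4%, 32.0% and 33.8% in Low ×5, without overlap (log2 difference 0.63, SE 0.14, adjusted p = 0.312). Of these 8 CpGs, 7 were higher in High ×5 and 1 was called, and their levels ran from 4.8% to 76.3% in Low ×5 within 150 bp.

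**Figure D4:**
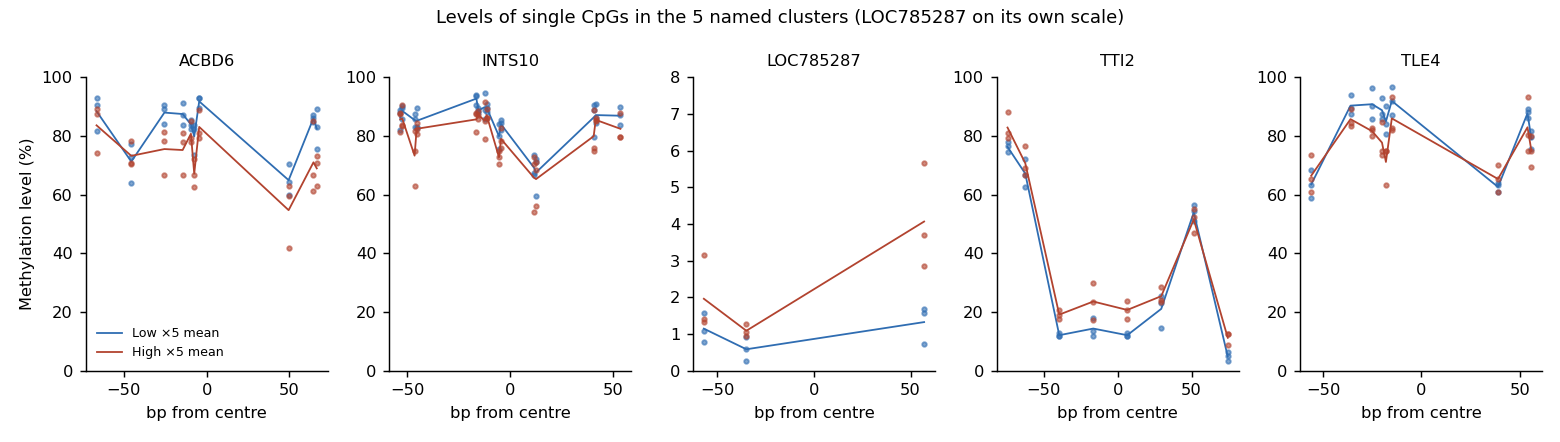
Methylation level (percent) of each CpG in the 5 clusters with the smallest p-values against its distance from the centre of the cluster (bp), with 1 point per ×5 library and lines through the treatment means; LOC785287 is drawn on a scale to 8%. The High ×5 line lies below the Low ×5 line at 9 of 10 CpGs in ACBD6 and at all 15 in INTS10, and above it at 7 of 8 in TTI2.

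Of the 365 genes with assigned CpGs, 152 (41.6%) had a called CpG, 136 a demethylated one, 63 a methylated one and 47 both. The assigned CpGs held 447 calls among 25162 (1.78%). C14H8orf33 had 24 called CpGs (8 methylated, 16 demethylated) among 1074. ALG6, a glucosyltransferase of N-glycan assembly, had 15 (1 methylated, 14 demethylated) among 960. TLE4 had 11 among 688, and PAK1, a kinase downstream of Rac and Cdc42, had 10 among 743. TTI2 had 10 and PPP2R2A, BRINP1 and GRIK1 had 9 each. TWIST1, a transcription factor of mesenchymal cells, and CLINT1, a clathrin adaptor, had 8 each. A further 5 genes had 7 each, CPS1, the first enzyme of the urea cycle, CFAP126, a ciliary protein, ACBD6, ADCYAP1 and GALNT17. Together these 15 genes held 148 calls, 31 methylated and 117 demethylated, which is 1.99% of their 7440 CpGs, against 1.78% over all assigned CpGs. The share in single genes ran from 1.14% in CFAP126 to 4.24% in ACBD6 and 7.53% in ADCYAP1, which had 165 and 93 tested CpGs. In the 13 others, with 314 or more tested CpGs each, it was at most 2.60%, in GRIK1. CFAP126 was the exception in direction, with 5 of its 7 calls methylated, a mean level of 39.5% in High ×5 and 39.1% in Low ×5, and 47.5% of its CpGs lower in High ×5.

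**Figure D5:**
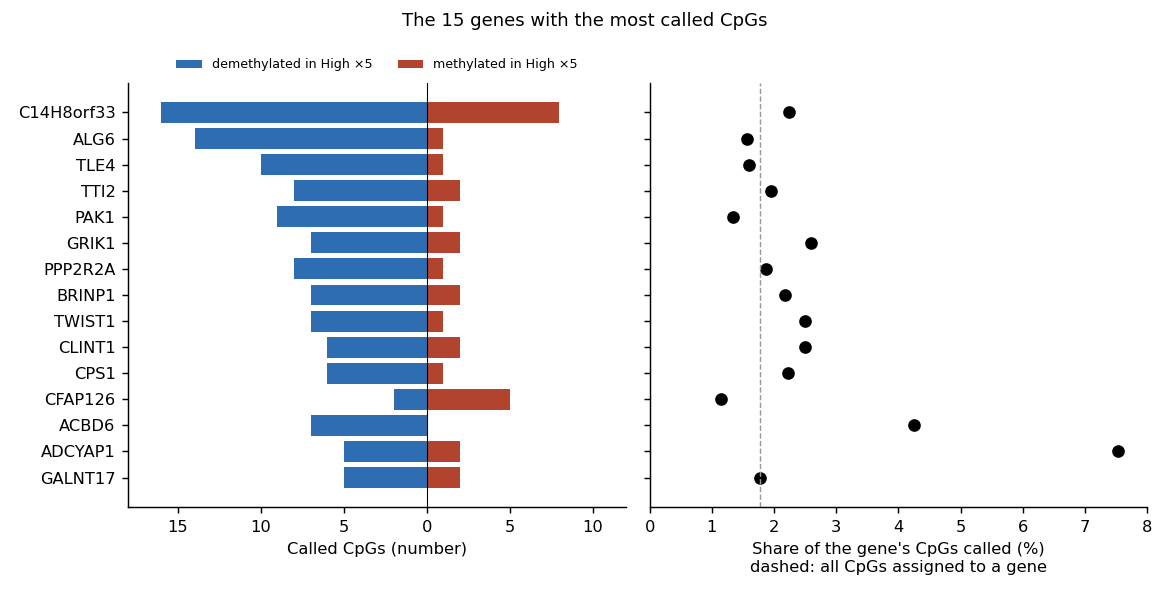
The 15 genes with 7 or more called CpGs, with the number of demethylated (to the left) and methylated (to the right) CpGs in High ×5, and the share of each gene's tested CpGs that was called (percent, right panel). The shares lie between 1.14% and 2.60%, around the 1.78% of all assigned CpGs (dashed line), except in ACBD6 (4.24%) and ADCYAP1 (7.53%), and CFAP126 alone of these 15 has more methylated than demethylated calls.

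Averaged over all CpGs of a gene, 17 of 365 spans were called (4.66%), 2 methylated (0.548%) and 15 demethylated (4.11%). With libraries centred on the median, 7 were methylated and 3 demethylated. After quantile normalization, 1 was methylated and 4 were demethylated, and with equal median and SD of libraries 2 were called in each direction. RGR, which is represented by the CpG described before, was the only span with an adjusted p-value under 0.05 (0.0178, limma over 365 spans). Genes entered these spans only through CpGs called in the study's tables, made from these libraries, so the adjustment was over a preselected set. Over all 31500 CpGs, the same CpG had an adjusted p-value of 0.300 (limma). The adjusted p-value of the RGR span exceeded 0.05 without High ×5 library 1 (0.118), without High ×5 library 2 (0.111) and without Low ×5 library 2 (0.146), and ranged from 0.00102 to 0.187 over the alternatives. The mean of 291 spans was lower in High ×5. Libraries were apart in 115 spans with High ×5 lower and in 15 with High ×5 higher. The number of called spans was 9 without High ×5 library 2, 9 without Low ×5 library 1 and 8 without Low ×5 library 2. The following spans were chosen after their values were seen, as the called ones with over 30 CpGs. C6H4orf19 had 32 CpGs on chromosome 6 from 56676835 to 56682201, with 79.8% ± 0.841 in High ×5 and 82.6% ± 0.618 in Low ×5 (SD, n = 3, log2 difference -0.34, adjusted p = 0.149, limma). KYNU, an enzyme of tryptophan breakdown, had 46 CpGs on chromosome 2, with 68.0% ± 1.68 and 70.9% ± 1.20. TMED3 had 45 CpGs on chromosome 21, with 70.5% ± 1.11 and 73.6% ± 0.806. KLHL14 had 79 CpGs on chromosome 24, with 80.4% ± 1.54 and 82.9% ± 0.627, and 6 calls, all demethylated. ACBD6 had 165 CpGs, with 69.2% ± 0.863 and 71.5% ± 0.381, and 7 calls, all demethylated. ADCYAP1 had 93 CpGs, with 67.8% ± 0.780 and 70.3% ± 0.639. The CpGs named BOLA lie on 2 chromosomes, 10 and 15, and had 69.8% ± 1.02 and 72.4% ± 0.824 over 143 CpGs. In all of these spans, the mean was lower in High ×5 by 2 to 4 points, and the libraries of KYNU alone overlapped.

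Gene lists are set here against the 1.78% of all assigned CpGs that were called, the 41.6% of all genes with a called CpG and the 80.3% of calls in assigned CpGs that were demethylated. Wnt signalling genes had 20 calls among 1031 CpGs in 6 genes (1.94%), 19 of them demethylated. The median difference over these CpGs was -0.16 on the log2 scale, against -0.10 over all CpGs. A called CpG was present in 4 of the 6 genes, SFRP1, TLE4, TLE1 and ZNRF2, and in neither RSPO3 nor TBXT. In ZNRF2, a ubiquitin ligase, a CpG at 66527117 on chromosome 4 had 64.0%, 75.0% and 64.1% in High ×5 and 84.7%, 83.5% and 84.9% in Low ×5. The Low ×5 libraries lay within 2 points of each other and High ×5 library 2 came closest to them (log2 difference -1.35, SE 0.31, adjusted p = 0.444, limma). MAP kinase and growth factor genes had 13 calls among 1088 CpGs (1.19%), 12 demethylated, in 3 of 10 genes. These were PAK1, MAPK8, which codes for the stress kinase JNK1, and RASA1, which turns Ras off. MAPK8 had 2 demethylated calls, and at 43073869 on chromosome 28 its levels were 87.9%, 83.9% and 83.3% in High ×5 and 95.4%, 94.4% and 90.0% in Low ×5. MAP2K6, GADD45G, DUSP26, TAB3, PDGFA, MET and NTRK3 had no called CpG. Genes of G protein and cyclic AMP signalling had 17 calls among 1172 CpGs (1.45%), 5 methylated and 12 demethylated, in 5 of 14 genes.

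Of these signalling genes, ADCYAP1, which codes for the neuropeptide PACAP, an activator of adenylyl cyclase, had the largest number of calls in its list, 7 of 93 CpGs. They fell in a stretch of chromosome 24 from 36386467 to 36389165 and went in both directions. At 36389011, the levels were 78.8%, 81.5% and 74.5% in High ×5 and 97.2%, 91.2% and 95.4% in Low ×5. At 36388995, they were 81.8%, 85.2% and 87.2% against 94.4%, 94.7% and 93.8%. All 5 demethylated CpGs had means of at least 88.8% in Low ×5. The 2 methylated positions, 36386493 and 36386494, lie 1 bp apart in a run of adjoining tested positions and may be both strands of 1 CpG. They had means of 1.54% and 2.56% in High ×5 and 0.588% and 1.01% in Low ×5. At levels this near 0, the offset and the number of reads weigh on an M-value, and their part in these calls was not tested. No overlap between the libraries was seen in any of the 7 positions, and each had an adjusted p-value of 0.326 to 0.618 (limma). The number of calls in ADCYAP1 was 3 after quantile normalization and 4 or 5 without each of the 6 libraries in turn. ARRDC3, an arrestin domain protein that takes part in receptor turnover, likewise had 2 demethylated CpGs with means of 84.2% and 94.9% in Low ×5 and 1 methylated CpG with a mean of 1.76%. CCR2, a chemokine receptor, had 1 of each kind, at 93.9% and 1.83% in Low ×5. The same limit holds for the methylated CpGs of ARRDC3 and CCR2.

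Genes of mitochondria and metabolism had 35 calls among 2066 CpGs (1.69%), 33 of them demethylated. A called CpG was present in 13 of the 17 genes (76.5%), which had a mean of 122 tested CpGs, against 68.9 over all 365 genes. GHITM, a protein of the inner mitochondrial membrane, had 4 demethylated CpGs among 163. At 39275909 on chromosome 28, its levels were 87.9%, 88.5% and 89.0% in High ×5 and 95.1%, 94.6% and 92.8% in Low ×5. The libraries were close within both groups and did not overlap (log2 difference -1.09, SE 0.25, adjusted p = 0.440, limma). NDUFB7, a subunit of complex I of the respiratory chain, had 4 demethylated CpGs among 291, of which the pair at 12132997 and 12133004 on chromosome 7 lie 7 bp apart. The first of these had 76.3%, 74.3% and 75.3% in High ×5 and 88.0%, 88.0% and 80.6% in Low ×5, and the second 71.1%, 68.6% and 76.3% against 87.3%, 85.9% and 80.6%. In both, Low ×5 library 3 was nearest to High ×5. LYRM1, a small mitochondrial protein, had 3 demethylated CpGs among 194. ACO1, MCEE, ACSS3 and FUNDC1 had none. The means over all CpGs of GHITM, NDUFB7 and LYRM1 were lower in High ×5 by less than 3 points and did not pass the test (adjusted p = 0.198, 0.303 and 0.397).

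Chromatin and transcription factor genes had 42 calls among 1821 CpGs (2.31%), 5 methylated and 37 demethylated, in 12 of 20 genes. HDAC8, a histone deacetylase on the X chromosome, had 4 demethylated CpGs and 1 methylated CpG among 201. At 83172154, its levels were 85.0%, 77.8% and 83.5% in High ×5 and 91.7%, 94.1% and 90.6% in Low ×5 (log2 difference -1.35, SE 0.28, adjusted p = 0.338, limma). The methylated CpG, at 83180483, had 73.9%, 59.1% and 70.3% in High ×5 and 50%, 50% and 52.0% in Low ×5, and a CpG 111 bp before it was demethylated. KLF4, a transcription factor of the Krüppel family, had 3 demethylated CpGs among 21. Its CpG at 99199747 on chromosome 8 had 78.1%, 82.1% and 85.9% in High ×5 and 93.6%, 95.0% and 91.8% in Low ×5. Over its 21 CpGs, KLF4 had 72.3% ± 2.36 in High ×5 and 75.3% ± 1.86 in Low ×5, and the libraries overlapped (adjusted p = 0.184). WDR5, AEBP2, CHD1L, OSR1, TBXT, SIM1, RARA and CRY2 had no called CpG.

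Genes of synapses and neural adhesion had 37 calls among 1608 CpGs (2.30%), 8 methylated and 29 demethylated, in 9 of 15 genes. TENM3 had 6 calls among 148 CpGs, and its 2 methylated CpGs, at 10391114 and 10392564, had means of 2.40% and 2.58% in Low ×5 and 5.76% and 6.87% in High ×5. These 2 lie near 0 too, where the offset and the number of reads weigh on the value. The 4 demethylated CpGs of TENM3 had means between 74.5% and 95.7% in Low ×5. ADGRL2, an adhesion receptor also known as latrophilin 2, had 1 call, with 87.8%, 75.8% and 87.7% in High ×5 and 95.1%, 96.5% and 92.3% in Low ×5. High ×5 library 2 was the lowest there by a wide margin. Regulators of small GTPases had 7 calls among 501 CpGs (1.40%), 2 methylated and 5 demethylated, in 4 of 11 genes, RASA1 among them. ARFGAP3, which turns ARF proteins off, had 3 demethylated CpGs and 1 methylated CpG, RAB37 had 1 demethylated CpG and ARFGEF1, which turns ARF proteins on, had 1 methylated CpG. Immune genes had 14 calls among 1353 CpGs (1.03%), 2 methylated and 12 demethylated, in 7 of 19 genes. CpGs that the study's tables name BOLA, the name of the cattle major histocompatibility genes, had 6 of these calls, all demethylated. They lie on chromosomes 10 and 15, and it was not checked whether such genes lie there. IFNB3, an interferon beta gene, had 1 methylated CpG at 23184284 on chromosome 8, with 33.3%, 28.0% and 28.8% in High ×5 and 16.2%, 20.3% and 17.2% in Low ×5, without overlap (log2 difference 0.98, SE 0.28, adjusted p = 0.554).

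The genes that the study's own process list names for this comparison had 48 calls among 2929 CpGs (1.64%), 8 methylated and 40 demethylated, in 17 of 28 genes. The study drew this list from the same libraries, so it is not independent evidence of their direction. By p-value, the called CpGs of SFRP1, UBE2D1, ADCYAP1, HDAC8, ARFGAP3, PAK1, PUF60 and YBX1 came first. PUF60, a splicing factor, had 2 demethylated CpGs 21 bp apart, at 2187393 and 2187414 on chromosome 14. The first had 78.3%, 81.5% and 86.4% in High ×5 and 91.0%, 92.2% and 87.7% in Low ×5. YBX1, a protein that binds RNA and DNA, had 1 demethylated CpG with 91.5%, 86.4% and 94.3% against 97.4%, 97.2% and 95.0%. In both genes, the High ×5 library closest to Low ×5 was library 3. No called CpG was found in AGO2, MAP2K6, GADD45G, OSR1, ZNF350, ASPH, DUSP26, AEBP2, ADRA1A, PLCB1 and RGS7. The shares called in all 9 gene lists lay between 1.03% and 2.31%, around the 1.78% of all assigned CpGs.

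Chromosome 24 had the highest share of called CpGs of all chromosomes, 25 of 428 (5.84%), with 2 methylated and 23 demethylated. It was singled out after the values were seen. The median difference over its CpGs was -0.21 on the log2 scale, and the next highest share was 2.44%, on chromosome 15. The calls came from separate places: KLHL14 with 6, ADCYAP1 with 7, the region of ST8SIA3 with 7, ST8SIA5 and CYB5A with 2 each and CETN1 with 1. ST8SIA3 and ST8SIA5 both code for sialyltransferases. TMX3 had 31 CpGs with 0 calls. The number of calls on chromosome 24 was 20 with libraries centred on the median, 14 after quantile normalization, 14 without High ×5 library 2, 15 without Low ×5 library 1 and 16 without Low ×5 library 2.

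The CpGs called at ×5 were also looked up at the other EM levels, whose libraries were not used in their difference. The fit has 1 estimate of spread per CpG over all 18 libraries. A CpG with a small spread is thus called more readily at every EM level. The part of this in the shares of calls given here was not tested. The 410 demethylated CpGs had a median High minus Low difference of -0.17 at ×2.5 on the log2 scale, against -0.04 over all CpGs, and 12 of them were called demethylated (2.93%) and 1 methylated there, against 220 (0.698%) and 97 (0.308%) of all 31500 CpGs. At the Control level, their median was 0.27, against 0.08 over all CpGs, with 26 called methylated (6.34%) and 3 demethylated (0.732%), against 435 (1.38%) and 171 (0.543%) of all CpGs. The 96 methylated CpGs had medians of 0.23 at ×2.5 and -0.26 at the Control level. At ×2.5, 1 of them was called in each direction, and at the Control level 5 were called methylated and 8 demethylated. After quantile normalization, the medians of the demethylated CpGs were -0.07 at ×2.5 and 0.10 at the Control level, and those of the methylated CpGs 0.21 and -0.15. Across all 31500 CpGs, the difference at ×5 had a Pearson correlation of 0.131 with that at ×2.5 and of -0.187 with that at the Control level, or 0.0627 and -0.0817 after quantile normalization. These pairs of differences share no library. The glucose difference at ×5 was tested against that at the Control level in the same fit, and 880 CpGs differed (2.79%), 3 of them also by the adjusted p-value of 0.05, and so did 174 clusters (6.53%) and 46 gene spans (12.6%), 6 and 7 of them under the adjusted threshold. Of the 880 CpGs, 701 had a lower difference at ×5 and 179 a higher one. After centring of each library, this split was 364 and 381. It was 283 and 223 after quantile normalization (506 CpGs) and 277 and 243 with equal median and SD of libraries (520 CpGs). Without Low Control library 1, 1536 CpGs, 361 clusters and 117 spans were called. Without Low ×5 library 1, the numbers of clusters and spans were 94 and 22, and without Low Control library 3, they were 91 and 23. The number of clusters was also lower by 1.5 times or more without High ×5 library 2 (109), High Control library 1 (110) or Low Control library 2 (116), and that of spans was 22 to 29 without these 3 libraries, High Control library 3 or Low ×5 library 2. Against the difference at ×2.5, 262 CpGs were called (0.832%), fewer than the 315 that would be called if no CpG differed, and 0 had an adjusted p-value under 0.05 (limma, 1393 at an unadjusted p-value under 0.05).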

How the data were processed

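RRBS was performed by the authors on EBTr cells, in 3 libraries for each of 6 treatments. The GEO labels list the material as RNA, whereas the study's methods and the values are those of DNA methylation. Per the study's methods and the labels, the authors checked reads with FastQC 0.11.8 and MultiQC 1.9, trimmed adapters with Cutadapt and used Bismark 0.22.3 on the bosTau8 assembly. Only cytosines of CpGs were kept by the authors, without those of very low or extreme coverage. The authors deposited log2 values, 1 M-value per CpG and library, and they called differences with edgeR on reads. The offset in the M-values is not given in the sources used here, and neither is the depth of each library, so precision is judged by the spread of 3 libraries alone. An M-value from few reads lies nearer to 0 than one from many reads.

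Here, levels were computed back as the share that the ratio implies. M-values were compared by limma 3.58.1 (R 4.3.3) on the M-values of all 18 libraries, 1 mean per treatment, two-sided, with 12 residual and 4.11 prior degrees of freedom. Calls were made at unadjusted p-values below 0.01, with the Benjamini-Hochberg adjusted p-value beside it. The same test was applied to clusters (at least 3 CpGs less than 100 bp apart), gene spans (the mean over CpGs of a gene) and differences between EM levels. A CpG belonged to a gene where the study's tables name it or where it lay between named CpGs of that gene alone, and 2 of the 10 tables were held in part. Mean levels were compared with exact permutation tests. On simulated data, 57.0% of CpGs with a log2 change of 1 and 94.5% of those with a change of 2 were called, and 0.946% to 1.15% of unchanged ones. The simulated CpGs were independent, and the simulated libraries had no library-wide shift and no unequal depth. These shares therefore cannot give the rate of false calls in the real libraries. Python 3.11.15 (numpy 2.4.6, pandas 2.3.3) was used for all else.

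Named items follow a rule: CpGs, clusters and spans with an adjusted p-value under 0.05, the 6 CpGs with the smallest p-value in each direction among those with libraries apart, the 5 clusters with the smallest p-value, the 12 genes with most calls (ties by position, the 3 tied genes left out being named too), and up to 3 genes of each gene list (8 of the study's list) by p-value. The comparison, gene lists and rule were chosen with earlier results of these data known. Alternatives were robust and trended eBayes, the replicate number as a block, 3 scalings of libraries, fractions, 6 libraries alone, each library left out, a filter on level, a minimum difference, the adjusted threshold, other gaps, larger spans and, chosen after seeing the data, strand means and each Control library left out. The permutation test of the mean level between EM levels was not planned either.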

Additional observations from a re-analysis of the deposited data

Results flagged for a closer look

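Results in which the glucose difference at ×5 differed from that at the Control level are given here, with values of High minus Low at ×5 minus High minus Low at the Control level. The SD of the M-values was 1.68, 1.63 and 1.74 in High ×5 and 1.83, 1.79 and 1.77 in Low ×5. In High Control it was 1.78, 1.74 and 1.78 and in Low Control 1.77, 1.63 and 1.58. The part of library spread and depth in the differences of this section was not tested. The mean level over all CpGs differed by -2.19 points between the EM levels, -1.17 at ×5 against 1.02 at the Control level (two-sided exact permutation test over 400 arrangements, p = 0.04). The arrangements exchange High and Low libraries within each EM level. This p-value is thus for no glucose difference at either level, and it cannot test for an equal difference at both. The value of -2.19 ranged from -1.68 without Low Control library 3 to -2.89 without Low Control library 1. The p-value was 0.05 or above without High ×5 library 2 (0.06), Low ×5 library 1 (0.055) or 2 (0.05), High Control library 2 (0.05), High Control library 1 (0.08) or 3 (0.06), or Low Control library 2 (0.07) or 3 (0.08).

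Of single CpGs, those of SFRP1 (-2.44 on the log2 scale, adjusted p = 0.0114, limma), TFF3 (-2.23, adjusted p = 0.0389) and CERS6 (-2.96, adjusted p = 0.0389) differed. CERS6, a ceramide synthase, had a mean of 91.9% ± 0.921 in High ×5, 97.0% ± 0.719 in Low ×5, 96.7% ± 0.762 in High Control and 91.7% ± 1.35 in Low Control at 27698417 on chromosome 2.

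Of clusters, those of ACBD6 (-1.30), TLE4 (-1.26), INTS10 (-0.73), PPP2R2A (-1.31), PLCB1 (-1.73) and ADCYAP1 (-1.86) had adjusted p-values from 0.00993 to 0.0406 (limma). The ADCYAP1 cluster, 4 CpGs on chromosome 24 from 36390820 to 36390871, had 45.7% ± 3.46 in High ×5, 55.5% ± 2.43 in Low ×5, 62.4% ± 3.38 in High Control and 47.1% ± 4.28 in Low Control. It was the only one of these 16 CpGs, clusters and spans with an adjusted p-value under 0.05 in all 18 alternatives (0.00162 to 0.0453). In PLCB1, a phospholipase C, the ×5 groups were at 83.7% ± 4.07 and 84.4% ± 0.603 and the Control groups at 87.3% ± 1.15 and 72.9% ± 5.46.

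Of gene spans, ADCYAP1 (-0.43), C6H4orf19 (-0.53), CETN1 (-1.53), RGR (-1.74), SERPINA3-3 (-0.94) and ST8SIA5 (-3.19) were lower at ×5 and P2RY1 (1.43) was higher, with adjusted p-values from 0.0462 to 0.0485. RGR, SERPINA3-3, ST8SIA5 and P2RY1 are 1 CpG each. The adjustment was over 365 genes that the study's tables had preselected from the same libraries. Over all CpGs, the RGR CpG had an adjusted p-value of 0.201 for this difference (limma). ST8SIA5 had an SD of 13.3 points in High ×5. Of the 16 CpGs, clusters and spans, 3 or 4 kept an adjusted p-value under 0.05 without High ×5 library 1, without any 1 of the Low ×5 libraries, without High Control library 1 or 3, or without Low Control library 2 or 3. Without High ×5 library 2 or 3, High Control library 2 and Low Control library 1, 9, 10, 7 and 16 did.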

How the results depend on the processing

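The mean level was lower in High ×5 in all 9 alternatives, by -0.814 to -1.37 points without 1 library each and by up to -1.73 as a median over CpGs. Leaving out 1 library each, 337 to 752 CpGs were called (59 to 183 methylated, 248 to 569 demethylated), with 28 to 102 clusters, 8 to 17 gene spans, 219 to 350 CpGs in the test against ×2.5 and 650 to 1536 in the test against the Control level. With libraries centred on the median, 212 CpGs were methylated and 232 demethylated, and 10 spans were called. After quantile normalization, 324 CpGs (189 demethylated), 24 clusters, 5 spans and 506 CpGs in the test against the Control level were called, and with equal median and SD 149 methylated and 190 demethylated CpGs, 26 clusters, 4 spans and 520 CpGs. Levels as fractions gave 40 clusters, CpGs with a mean level from 10% to 90% gave 60 methylated CpGs, spans of at least 5 CpGs gave 10 calls and strand means 92 of 5637. With a difference of at least 10 points, 50 methylated and 185 demethylated CpGs remained of the called ones, 235 in all. At an adjusted p-value under 0.05, 1 CpG (0 methylated and 1 demethylated), 0 clusters and 1 span were called (limma, 2108 CpGs and 276 clusters at an unadjusted p-value under 0.05). The cause of these changes was not tested. With the replicate block, 527 CpGs were called. The numbers did not pair the libraries, since same-numbered High ×5 and Low ×5 libraries had correlations of -0.00939, 0.00776 and -0.0407 between their deviations from the group means. Named single CpGs and clusters, judged at the unadjusted p-value of 0.01, kept direction and call in 227 of 231 settings, and the 4 others were those of GRIK1 and LOC785287. The RGR span, judged at the adjusted p-value of 0.05, kept its call in 8 of 13. By the adjusted p-value, the SFRP1 CpG lost its call with 6 libraries alone (0.443). Depth was not worked out, so a difference that was not called may have been out of reach of 3 libraries.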
